A study of Rattus norvegicus with 6 samples.

Results

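The microRNAs (miRNAs) miR-99a, miR-99b, miR-100, miR-125a and miR-125b were measured in the epididymal sperm of rats fed a high-protein diet (HPD) and of rats fed a standard diet (SD). They were found in the tables by name as 6 rows of genome-matched miRNA hairpins (rno-mir-99a, rno-mir-99b, rno-mir-100, rno-mir-125a, rno-mir-125b-1 and rno-mir-125b-2), out of 379 such rows and 26562 small RNA rows in all. All 6 passed the filter on low counts and were tested. The HPD fathers were wild type Wistar rats that received, from the age of 10 weeks and for 2 to 3 months, a diet enriched in protein, largely casein. The SD fathers were rats of the same strain and age on standard chow, and the rats were housed 2 per cage. Sperm of 5-month-old rats were squeezed from the epididymis and given a hypotonic shock, which serves to burst somatic cells, and small RNA of 3 individual rats per diet was sequenced. In the tables the HPD libraries are named HPD2 (rep1), HPD3 (rep2) and HPD7 (rep3) and the SD libraries CTRL1, CTRL2 and CTRL3.

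Mature miRNAs are short single strands that guide silencing proteins to messenger RNAs, mostly through their seed, the bases 2 to 8 from the 5′ end. Mammals carry 3 related clusters in which a member of the miR-99/100 family, a let-7 gene and a miR-125 gene follow each other and can be cut from a common primary transcript. The miR-99/100 family is known in human and mouse cells for repressing the kinase mTOR and the IGF1 receptor, which relay growth and nutrient signals. The miR-125 family is related to lin-4, a regulator of developmental timing in the worm C. elegans, and acts with let-7 against Lin28 in mammals. Mature sperm hardly transcribe, and in mice a part of their small RNA is taken up during passage through the epididymis.

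The sequences show the 2 seed groups into which the members fall. They are from RefSeq (build GRCr8), with the seed in capitals. In the first group, miR-99b and miR-100 share the seed, and the same bases are in capitals in the hairpin of miR-99a.
miR-99b-5p: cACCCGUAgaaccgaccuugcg
miR-100-5p: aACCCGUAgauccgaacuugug
miR-99a hairpin: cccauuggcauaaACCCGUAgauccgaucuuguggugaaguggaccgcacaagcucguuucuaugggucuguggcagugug

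In the second group, miR-125a, miR-125b and their relative miR-351 share another seed, which is why miR-351 is shown beside them.
miR-125a-5p: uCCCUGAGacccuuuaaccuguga
miR-125b-5p: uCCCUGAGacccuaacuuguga
miR-351-5p: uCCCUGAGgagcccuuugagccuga

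The let-7 forms of the clusters and miR-10a and miR-10b, which are relatives of miR-99/100 outside the clusters, have other seeds and served as comparison. The listed miR-10b-5p starts at a later base of the stretch it shares with miR-10a-5p, so their marked seeds are shifted against each other.
let-7a-5p: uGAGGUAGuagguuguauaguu
let-7c-5p: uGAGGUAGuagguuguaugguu
let-7e-5p: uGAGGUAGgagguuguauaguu
miR-10a-5p: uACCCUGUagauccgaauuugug
miR-10b-5p: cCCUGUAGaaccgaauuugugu

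Some members are so alike that reads could be shared between rows. With positions counted from 1 at the 5′ end of miR-100-5p, the matching stretch of 22 bases in the miR-99a hairpin differed by the single change A16U. For miR-99b-5p the changes were A1C, U11A, A16C and U21C. Reads down to 15 bases were kept, so a read that ends before base 16 cannot tell miR-99a from miR-100. In CTRL2 and CTRL3 the counts of both miR-99a and miR-100 ended in 0.5 of a read, and in the other libraries both were whole. Whole counts do not exclude sharing, since an even number of split reads also gives them, as in the miR-125b rows of HPD2 and CTRL3. The number of reads shared between miR-99a and miR-100 is therefore not known. The mature miR-125b-5p is made by both miR-125b genes, whose rows therefore cannot be told apart in most of their reads. The row of miR-125b-2 exceeded that of miR-125b-1 by 140, 180 and 179 reads in HPD2, HPD3 and HPD7, and by 1049, 460 and 282 reads in CTRL1, CTRL2 and CTRL3. As a share of the miR-125b-2 row this excess was between 1.92% and 2.98% in the HPD libraries and between 2.62% and 7.84% in the SD libraries, so the shares overlapped. A hairpin row holds the reads of both of its arms.

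RefSeq places the members in 3 clusters, with the neighbours read by name within 100 kb. miR-99a stands with let-7c-1 and miR-125b-2, miR-100 with let-7a-2 and miR-125b-1, and miR-99b with let-7e and miR-125a. The cluster of miR-99b lies within the span of Spaca6, a gene needed in mice for the fusion of sperm and egg. The cluster of miR-100 lies within the span of the transcript unit Mir100hgl.

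The libraries held between 5703625 and 7697588 reads in the HPD group and between 4141018 and 7920000 reads in the SD group. Genome-matched miRNA made up 11.3% to 15.1% of these reads in the HPD and 20.9% to 28.9% in the SD libraries. Normalized counts are the deposited values, which are reads divided by 1 factor per library. Fold changes are from edgeR's quasi-likelihood test of 1858 rows of all small RNA populations in 1 model, and adjusted *p* values are from the method of Benjamini and Hochberg over these rows. Values after ± are standard deviations over the 3 libraries of a diet. A row was called at an adjusted *p* of at most 0.05. The median log2 fold change of HPD over SD was −0.87 over the 281 genome-matched miRNA rows tested and 0.03 over all rows, so each miRNA is to be read against the first value. No batch is given for the 6 libraries, and any that ran along with the diets cannot be told apart from them. In such bulk samples, fewer cells of a type cannot be told apart from less RNA per cell.

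First, the 3 members with the miR-99/100 seed were about 4 times lower in normalized counts in the sperm of HPD fathers. Those with the miR-125 seed did not pass the test. In total 3 of 6 members were lower and none was higher. The background was 6.4% lower and 2.21% higher calls over all rows. It was 29.5% lower and 0% higher over the miRNA rows, and 39.7% lower over the miRNA rows with a mean above 200 normalized counts. The calls were also past the stricter thresholds of the study, which add a fold change of 2 or more and a mean over 200 normalized counts. These were met, in the lower direction, by 20.6% of the miRNA rows and 4.57% of all rows. The median log2 fold change of the 6 members was −1.42.

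miR-99a, the most abundant member, had 9719, 7506 and 7098 normalized counts in HPD2, HPD3 and HPD7, against 31031, 35459 and 25684 in CTRL1, CTRL2 and CTRL3. The highest HPD library was far below the lowest SD library. The means were 8107 ± 1410 in HPD and 30725 ± 4895 in SD fathers. The fitted log2 fold change was −1.96 with a standard error of 0.23 and an adjusted *p* of 0.00122 in edgeR.

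miR-100, which differs from the miR-99a stretch by the 1 base given above, had 1133, 823 and 614 normalized counts in HPD2, HPD3 and HPD7, against 3532, 4577 and 2519 in CTRL1, CTRL2 and CTRL3. The groups did not overlap, with CTRL3 the lowest of the SD libraries for miR-100 as for miR-99a. edgeR gave −2.10 on the log2 scale (standard error 0.31) at an adjusted *p* of 0.00249.

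miR-99b, the least abundant member, had 717, 524 and 483 normalized counts in HPD2, HPD3 and HPD7. It had 2493, 2444 and 2541 in CTRL1, CTRL2 and CTRL3, which were nearly equal. The means were 575 ± 125.2 in HPD and 2493 ± 48.4 in SD fathers. edgeR fitted −2.16 on the log2 scale, with a standard error of 0.25 and an adjusted *p* of 0.00117. Of the 281 miRNA rows, 28 had a lower log2 fold change than miR-99b, 32 than miR-100 and 35 than miR-99a. When the miRNA rows were fitted on their own, so that their median was near 0, rno-mir-99a (−1.19), rno-mir-100 (−1.35) and rno-mir-99b (−1.40) were still called lower, against a background of 16.6% lower and 9.03% higher calls.

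**Figure D1:**
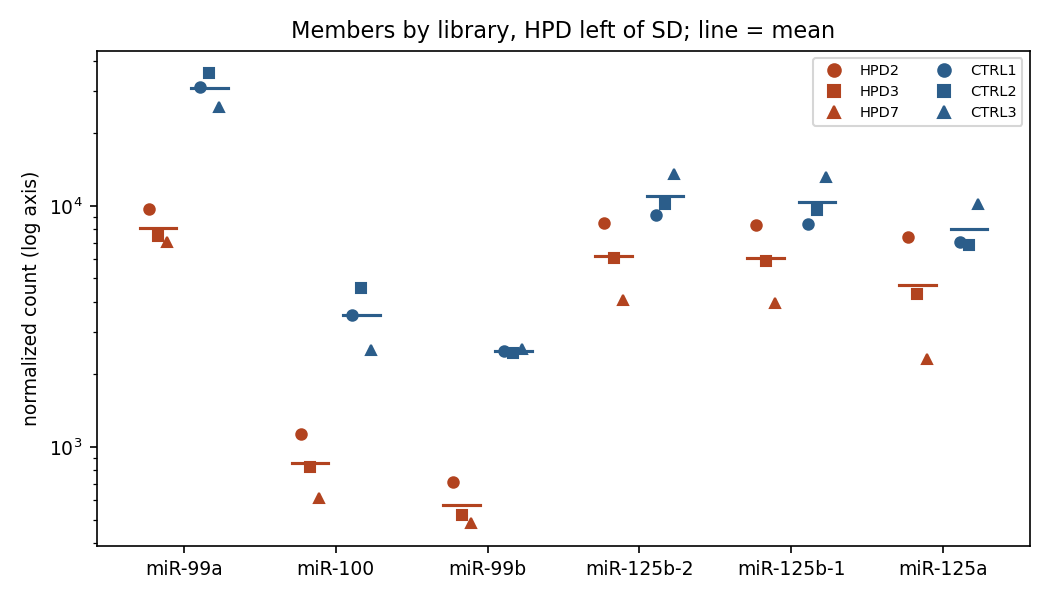
Normalized counts of the 6 member rows (logarithmic vertical axis) in each library, with HPD libraries in red left of SD libraries in blue and a line at the mean of each group of 3. miR-99a, miR-100 and miR-99b show a wide gap between the diets, whereas the miR-125 rows of HPD2 lie next to those of CTRL1.

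miR-125b-2 had 8459, 6077 and 4074 normalized counts in HPD2, HPD3 and HPD7, against 9161, 10211 and 13493 in CTRL1, CTRL2 and CTRL3. The groups were separated only by the small gap between HPD2 and CTRL1. Its fitted log2 value of −0.87 ± 0.28 (standard error) did not pass the test (adjusted *p* = 0.0911 in edgeR). This row is itself the median of the 281 miRNA rows, with 140 rows lower, so the 2 values are equal by definition. miR-125b-1, which shares the mature form, was close, at −0.83 ± 0.28 (standard error) and an adjusted *p* of 0.117 in edgeR. With both rows summed the log2 fold change was −0.85 (adjusted *p* = 0.0974 from edgeR). With library size alone, without TMM factors, both miR-125b rows passed (adjusted *p* = 0.0251 for miR-125b-2 and 0.0357 for miR-125b-1 from edgeR). miR-125b-2 alone passed when only rows with a mean normalized count of at least 50 were fitted (adjusted *p* = 0.0467).

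miR-125a had 7399, 4321 and 2314 normalized counts in HPD2, HPD3 and HPD7, against 7073, 6871 and 10133 in CTRL1, CTRL2 and CTRL3. HPD2 was above CTRL1 and CTRL2, so the groups overlapped. Its log2 value was −0.83 ± 0.36 (standard error) with an adjusted *p* of 0.256 in edgeR, and with 1 library left out it ranged from −1.22 without HPD2 (adjusted *p* = 0.134) to −0.41 without HPD7 (adjusted *p* = 0.72). Hence 5 of 6 members had every HPD library below every SD library. Both miR-125b rows are among them, share most of their reads and are nearly 1 measurement. The same order was found for 45.9% of the miRNA rows, 52.1% of those with a mean above 200 and 13% of all rows.

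The order of the members by mean level was the same under both diets, although in CTRL3 miR-99b was slightly above miR-100. A mature miRNA is read from end to end, so counts were not divided by length, and differences between sequences in how well they are cloned were not tested. In HPD fathers miR-99a averaged 8107 normalized counts and was followed by miR-125b-2 with 6203, and their ranges overlapped. In SD fathers miR-99a averaged 30725 and miR-125b-2 10955, and their ranges did not overlap. In both diets miR-125b-2, miR-125b-1 and miR-125a overlapped as neighbours, miR-100 lay below them without overlap, and miR-100 and miR-99b overlapped. Among the 379 miRNA rows, miR-99a held place 18 by its mean over all libraries, miR-125b-2 place 34, miR-125b-1 place 35, miR-125a place 41, miR-100 place 73 and miR-99b place 83.

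Next, the make-up of each seed group was compared, since it does not depend on the normalization. miR-99a held 84.0%, 84.8% and 86.6% of the reads of the miR-99/100 rows in HPD2, HPD3 and HPD7, against 83.7%, 83.5% and 83.5% in CTRL1, CTRL2 and CTRL3. Every HPD share was above every SD share, with HPD2 and CTRL1 close to each other, and all lay within a few percent. The shares of all other member rows within their seed groups overlapped. These shares were not tested, and no background for such an order was computed. The level of the group differed about 4-fold in normalized counts, which do depend on the normalization. Its part of the genome-matched miRNA reads was 0.989% to 1.44% in HPD and 2.36% to 3.78% in SD libraries. The share of miR-100 was 8.86 ± 1.21% in HPD and 9.50 ± 1.29% in SD fathers, and that of miR-99b was 6.004 ± 0.171% in HPD and 6.92 ± 1.27% in SD fathers. Among the miR-125 rows, miR-125a held 26.5 ± 4.13% in HPD and 27.3 ± 1.48% in SD fathers.

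Regarding the share of the miRNA reads, the same 3 members stood apart. miR-99a made up 0.973%, 0.839% and 1.25% of the genome-matched miRNA reads in HPD2, HPD3 and HPD7, against 1.98%, 3.15% and 2.07% in CTRL1, CTRL2 and CTRL3. All HPD libraries were below all SD libraries. For miR-100 the share was 0.104 ± 0.0111% in HPD and 0.279 ± 0.112% in SD fathers, and for miR-99b it was 0.0717 ± 0.0131% in HPD and 0.194 ± 0.0308% in SD fathers. These groups did not overlap either, as in 26.3% of the miRNA rows tested, while 16.7% had higher shares in HPD without overlap. By exact permutation (two-sided) *p* was 0.1 for each of the 3, the smallest that 3 rats against 3 allow (adjusted *p* = 0.2 over the 6 rows). The shares of the miR-125 rows overlapped, with 0.747 ± 0.0881% in HPD and 0.861 ± 0.256% in SD fathers for miR-125b-2, and the exact test gave *p* = 0.6 for each of the 3 rows (adjusted *p* = 0.6). Out of all reads counted, every member had a lower share in each HPD library than in each SD library (exact permutation *p* = 0.1 for each). So had 55.5% of the miRNA rows tested and 15.3% of all rows.

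**Figure D2:**
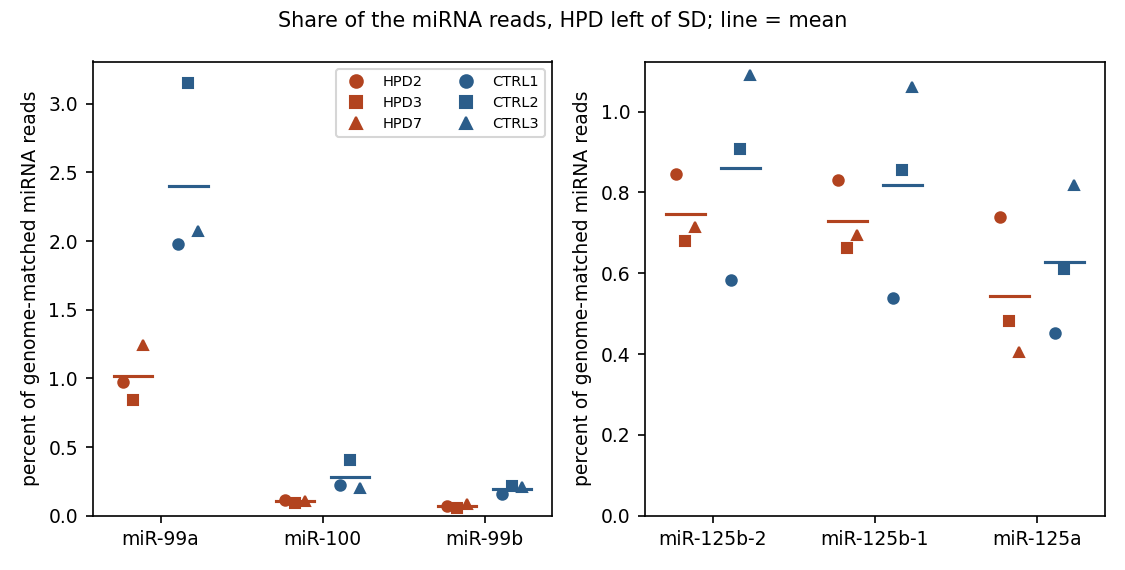
Percent of all genome-matched miRNA reads held by each member row, by library, with HPD libraries in red left of SD libraries in blue and a line at the mean of each group of 3. The miR-99 and miR-100 rows do not overlap between the diets, the miR-125 rows do, and for all 3 miR-125 rows CTRL3 is the highest library.

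The ratio of 2 hairpin rows of the same cluster was then compared within each library. The 2 miR-125b rows share most of their reads, so a ratio to either does not compare neighbours on the genome alone. Of the ratios to miR-125, only that of miR-99b to miR-125a is free of this sharing. The reads of miR-99a were 1.15, 1.23 and 1.74 times those of miR-125b-2 in HPD2, HPD3 and HPD7, against 3.39, 3.47 and 1.90 times in CTRL1, CTRL2 and CTRL3. The HPD libraries were below the SD libraries, with HPD7 and CTRL3 close to each other. The log2 difference, HPD minus SD, was −1.06.

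The reads of miR-100 were 0.137, 0.139 and 0.155 times those of miR-125b-1 in HPD2, HPD3 and HPD7, against 0.418, 0.476 and 0.192 times in CTRL1, CTRL2 and CTRL3. Here too CTRL3 was the SD library nearest to the HPD libraries. The log2 difference was −1.23.

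The reads of miR-99b were 0.0970, 0.121 and 0.209 times those of miR-125a in HPD2, HPD3 and HPD7, against 0.353, 0.356 and 0.251 times in CTRL1, CTRL2 and CTRL3. The log2 difference was again −1.23. The ratios of the miR-99a and miR-100 clusters are not separate measurements, since both have the shared miR-125b reads as denominator. In each of these ratios the groups did not overlap, which was the case, in either direction, for 24.9% of 285 pairs of neighbouring miRNA rows. By exact permutation (two-sided) *p* was 0.1 for each, the smallest possible (adjusted *p* = 0.18 over 9 ratios). The difference between the rows therefore did not pass. With 3 libraries per diet it could not have passed, and it had been seen in earlier results of these data. With each library left out in turn, the log2 difference was between −1.34 and −0.91 for miR-99a to miR-125b-2, between −1.64 and −0.98 for miR-100 to miR-125b-1 and between −1.54 and −0.99 for miR-99b to miR-125a.

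**Figure D3:**
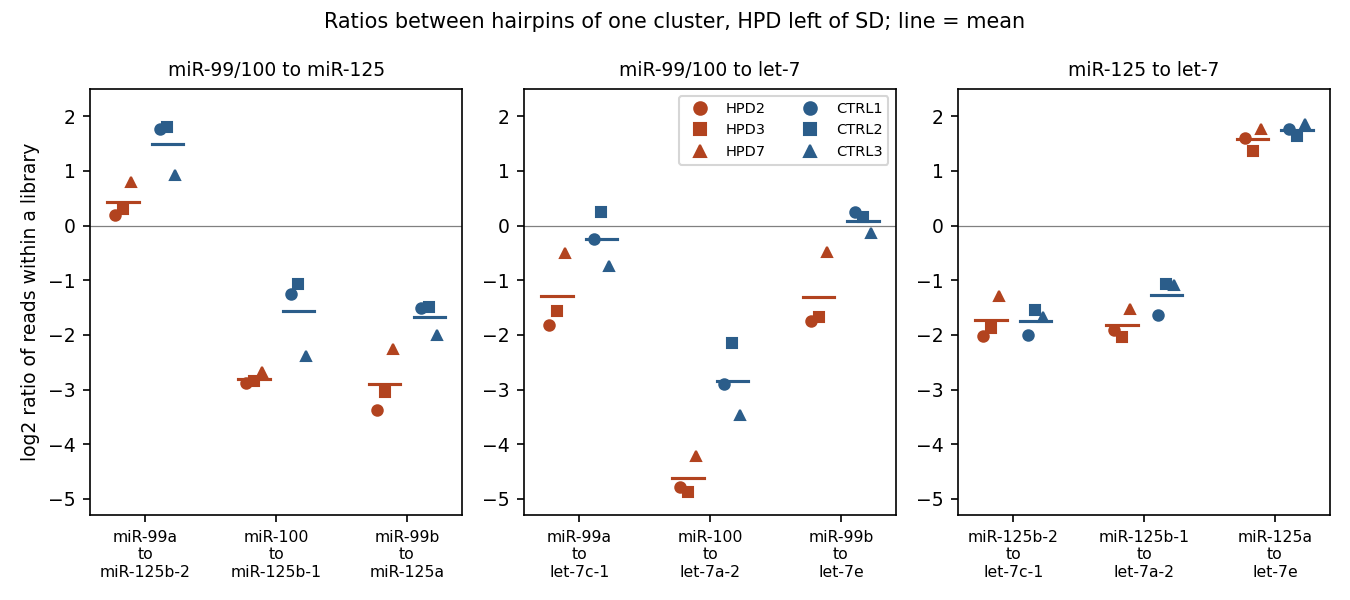
Log2 ratio of the reads of 2 hairpins of the same cluster within each library, for miR-99/100 to miR-125 (left), miR-99/100 to let-7 (middle) and miR-125 to let-7 (right), with HPD in red left of SD in blue and a line at the mean of each group of 3. With a miR-99 or miR-100 hairpin on top, 5 ratios are lower in HPD without overlap and miR-99a to let-7c-1 overlaps. All 3 miR-125 to let-7 ratios overlap. Of 285 pairs of neighbouring miRNA rows, 24.9% do not overlap, in either direction.

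The let-7 hairpins in the middle of the clusters did not pass the test. let-7c-1 had 34240, 22159 and 9985 normalized counts in HPD2, HPD3 and HPD7, against 36832, 29894 and 43071 in CTRL1, CTRL2 and CTRL3, a range that overlapped and that was widest in HPD (log2 fold change −0.79, adjusted *p* = 0.299 from edgeR). The log2 fold change was −0.22 for let-7a-2 and −0.63 for let-7e. Both shifted above 0 when miRNAs were normalized among themselves (0.50 for let-7a-2 and 0.039 for let-7e), and let-7a-2 also with upper quartile factors (0.014), with no filter (0.041) and without HPD7 (0.20). let-7a and let-7c are each made by several genes, so their rows hold reads of copies outside the clusters as well.

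Set against let-7, miR-100 was lower in HPD by a log2 difference of −1.79 and miR-99b by −1.39, in both without overlap, while miR-99a (−1.04) overlapped through HPD7. The ratio of miR-125b-2 to let-7c-1 differed by 0.02, less than the standard deviations of 0.38 in HPD and 0.24 in SD fathers. That of miR-125a to let-7e differed by −0.17, with standard deviations of 0.20 in HPD and 0.10 in SD fathers, and overlapped. That of miR-125b-1 to let-7a-2 differed by −0.56 and overlapped. The exact permutation *p* of these ratios, in the order given, were 1, 0.3 and 0.2 (adjusted *p* = 1, 0.338 and 0.257). In all, 5 of 9 ratios did not overlap, each with miR-99 or miR-100 on top, against 24.9% of 285 pairs of neighbouring miRNA rows. Within a cluster each ratio follows from the other ones, so the 9 are not separate measurements.

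The relatives outside the clusters were called lower in HPD sperm in all 4 rows tested. The background of lower calls was 29.5% over the miRNA rows, 39.7% over those with a mean above 200 and 6.4% over all rows. miR-351, which carries the seed of miR-125 from an X-linked gene, had 45.2, 31.3 and 29.9 normalized counts in HPD2, HPD3 and HPD7, against 163, 150 and 183 in CTRL1, CTRL2 and CTRL3. The groups did not overlap, and its log2 value of −2.25 ± 0.35 (standard error, adjusted *p* = 0.00345 in edgeR) was close to that of the miR-99/100 rows rather than to that of its seed group. Its 2 rows hold equal counts in every library and are 1 measurement, and with a mean below 200 it does not meet the thresholds of the study. miR-10a, a miRNA of the HOX clusters, had a log2 fold change of −1.53 (adjusted *p* = 0.00867 from edgeR) and miR-10b one of −1.37 (adjusted *p* = 0.0188). The call of miR-10a ended without HPD3 (adjusted *p* = 0.0723). That of miR-10b ended without CTRL1, HPD2, HPD3 or HPD7, with upper quartile factors and with miRNAs fitted on their own (adjusted *p* from 0.0515 to 0.113).

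**Figure D4:**
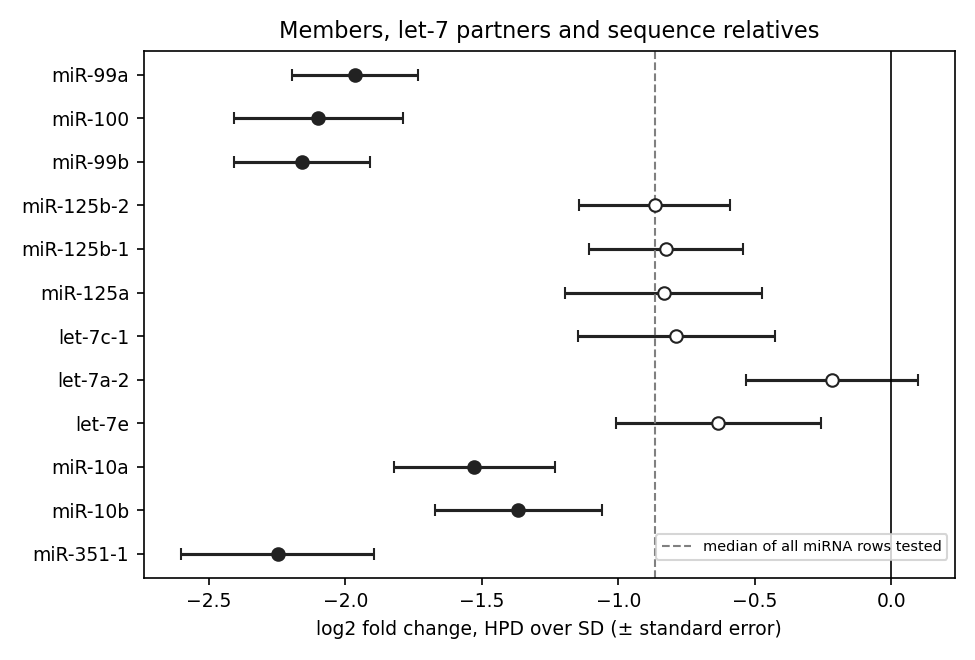
Log2 fold change of HPD over SD with its standard error from edgeR for the members, their let-7 partners and sequence relatives, with filled points for rows at an adjusted *p* of at most 0.05 and a dashed line at the median of the 281 miRNA rows (−0.87). miR-99a, miR-100 and miR-99b lie near −2, the miR-125 rows on or near the dashed line, which miR-125b-2 itself sets.

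The profile of each member over the 6 libraries was set beside those of 140 other miRNA rows with a mean normalized count above 200. The points share the difference between the diets, since 76 of 146 rows at this level had every HPD library below every SD library, so the correlations are a description only. For miR-99a the nearest were miR-378a (Pearson's r = 0.988), miR-23a (0.984) and miR-192 (0.982), for miR-99b miR-339 (0.991), miR-92a-1 (0.990) and miR-378a (0.989), and for miR-100 miR-181b-1, miR-199a and miR-320 (0.974 each). For miR-125a the nearest were let-7b (0.996), let-7d (0.993) and let-7c-1 (0.986). let-7b and let-7d were also nearest to both miR-125b rows (0.969 to 0.977), followed by miR-196a for miR-125b-2 (0.967) and miR-24-2 for miR-125b-1 (0.953). The r of miR-99a was 0.989 with miR-100 and 0.988 with miR-99b, compared to 0.804 with its cluster neighbour miR-125b-2.

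Markers of other cell types were followed beside these values. Their calls are to be read against all miRNA rows tested, of which 29.5% were lower and 0% higher, with a median log2 fold change of −0.87. Over all rows 6.4% were lower and 2.21% higher. Germ cell miRNAs were present in every library: their 13 rows summed to between 94064 and 128538 normalized counts in HPD and between 78724 and 97570 in SD libraries, and none passed the test. Of 6 leukocyte miRNAs 4 were lower and none higher, and their sum was 5645 to 7336 in HPD and 11531 to 13240 in SD libraries. The endothelial miR-126a was lower (1012 to 1732 in HPD and 3076 to 6392 in SD libraries). Of 4 miRNAs of smooth muscle and stroma 2 were lower, and their sum of 20744 to 65653 in HPD overlapped that of 39679 to 91053 in SD libraries. Of 7 epithelial miRNAs 1 was lower, with sums of 26069 to 51100 in HPD and 39921 to 77405 in SD libraries. Of 3 erythroid miRNAs 1 was lower, with sums of 620 to 695 in HPD and 1113 to 1646 in SD libraries. Of 5 rows of liver, kidney and gut miRNAs 4 were lower, among them both copies of miR-194. The 5 rows summed to 203 to 273 in HPD and 3399 to 4561 in SD libraries. Of these, miR-122 and miR-215 were at 0 in at least 1 library. Such sums follow the most abundant rows, which were miR-143 for stroma, miR-451 for the erythroid list and miR-192 and miR-194-2 for this list. For germ cells it was miR-34b, with 41768 to 53092 normalized counts in HPD and 20684 to 42512 in SD libraries. None of 2 striated muscle rows tested passed, with sums of 144 to 270 in HPD and 153 to 302 in SD libraries over 4 rows, of which miR-1, miR-133b and miR-206 were at 0 in at least 1 library. None of the germ cell, leukocyte, endothelial, stromal, epithelial or erythroid rows was at 0 in any library. By list, the median log2 fold change was 0.14 for germ cells, −0.039 for striated muscle, −0.53 for erythroid and −0.71 for epithelial rows. It was −1.145 for leukocytes, −1.32 for smooth muscle and stroma, −2.11 for the endothelial miR-126a and −3.99 for liver, kidney and gut. The part of other cell types in the values of the miR-99, miR-100 and miR-125 rows was not tested.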

How the data were processed

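Small RNA of sperm from 3 HPD and 3 SD rats was analysed from 2 deposited tables. Per the methods of the study, adapters were trimmed, reads under 15 nucleotides discarded and the rest annotated with SPORTS1.0 against Rnor_6.0 files. Bowtie, DESeq, DESeq2 and the mouse build mm9 are also listed in the submitters' processing notes. One table gives the authors' estimated counts, where shared reads appear as fractions. In the other, the deposited signal is a normalized count, for which the authors dropped the fraction and used 1 scaling factor for each library. 100% of its values gave back the whole reads (relative tolerance 1e-06), on which edgeR called 164 rows, compared to 160 on the rounded estimated counts.

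Libraries were grouped by diet. Nothing beyond the study's mention of individual rats says how the replicates were handled, so *p* values measure the spread between these libraries. The snoRNA row is a total that names no RNA (0.293% to 1.45% of reads) and was left out. Library size counted tRNA end rows, which are nested in whole-tRNA rows, once.

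After rounding, the counts entered edgeR 4.0.16 (R 4.3.3, TMM, filterByExpr with a minimum count of 10 and total of 15). Standard errors were derived from the F statistic. Ratios within a library used 0.5 added to each count, and correlations log2 of the normalized count plus 1. For shares and ratios, exact permutation tests (two-sided) were run in scipy 1.17.1. Alternatives used DESeq2 1.42.0, limma 3.58.1 (log2 of normalized values with a pseudocount of 1 or 0.5), other factors and filters, other sets of rows and each library left out. The test was also run on simulated data. Figures were drawn with matplotlib 3.10.9.

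The members, marker lists and tests were chosen with earlier results of these data known. Named miRNAs were the members, the let-7 rows next to them, miR-351, miR-10a and miR-10b, the markers, and for each member the 3 rows of highest Pearson's r. Sequences and neighbours are from RefSeq (GRCr8), another build than that of the tables, so no coordinates are given. Fold changes and *p* values of the supplement were not used.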

Additional observations from a re-analysis of the deposited data

How the results depend on the processing

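miR-99a, miR-99b and miR-100 stayed lower and past the threshold in all 19 alternatives, with log2 fold changes from −2.10 to −1.19 for rno-mir-99a, from −2.30 to −1.40 for rno-mir-99b and from −2.30 to −1.35 for rno-mir-100, and adjusted *p* of up to 0.0226, 0.0194 and 0.0309. The value nearest to 0 came in each case with miRNAs fitted on their own, where 16.6% of 277 rows were lower and 9.03% higher, and where the miR-125 rows were between −0.16 and −0.13. The count of 3 lower members was 5 with library size alone (4 past the thresholds of the study) and 4 among rows averaging 50 or more, and 3 with each library left out in turn. The cause was not tested. Over all rows the median was 0.03, and it was −0.09 with library size alone, 0.28 with upper quartile factors, 0.68 with no filter and 0.18 with limma. let-7a-2 had a log2 fold change above 0 with upper quartile factors (0.014), no filter (0.041), miRNAs on their own (0.50) and without HPD7 (0.20, against −0.42 without HPD2), and let-7e with miRNAs on their own (0.039). Leaving out 1 library, the log2 differences of the ratios stayed between −1.34 and −0.91 for miR-99a to miR-125b-2, −1.64 and −0.98 for miR-100 to miR-125b-1 and −1.54 and −0.99 for miR-99b to miR-125a. The ratio of miR-125b-2 to let-7c-1 was 0.02, and −0.20 without HPD7, −0.11 without CTRL1 and 0.16 without HPD2. Without CTRL3 the miRNA shares of miR-125a, miR-125b-1 and miR-125b-2 were higher in HPD by 0.0121, 0.0320 and 0.000813 percentage points, and with other libraries left out the difference reached −0.182, −0.229 and −0.252. Over all rows, 41 were higher and 119 lower. These counts were 76 and 150 with DESeq2, 68 and 91 unfiltered, 85 and 91 with upper quartile factors, 95 and 128 among rows averaging 50 or more, 15 and 79 with nested rows left out, 25 and 95 without CTRL1, 17 and 65 without HPD2, 15 and 62 without HPD3 and 50 and 76 without HPD7. HPD and SD columns share the numbers 1 to 3 (rep number of HPD, CTRL number), but nothing says that a number marks a shared litter, cage or day, and the deviations of same-numbered libraries from their group means had an r of −0.057 to −0.043 across 1858 rows. A fit with these numbers as replicate block called 28 rows higher and 104 lower, with the same 3 members at −1.96 for rno-mir-99a, −2.18 for rno-mir-99b and −2.09 for rno-mir-100, and changed no call of a member, let-7 row or relative. At 3 libraries per diet the exact tests cannot go below 0.1.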
